A study of Mus musculus with 24 samples.

Results

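The vehicle arm of a mouse steatohepatitis drug study is described here: 8 livers, numbered replicates 1 to 8 in their labels, out of 24 livers sequenced. They were taken because their labels give the treatment as vehicle, the carrier without drug. The other livers of the series received vutiglabridin, a compound the series title calls an agonist of paraoxonase 2 (PON2), or semaglutide, a GLP-1 receptor agonist, and were not used. The labels give the tissue as liver and the design text calls it NASH, non-alcoholic steatohepatitis, without naming the diet or genetic model, the strain, the sex, the age or the length of treatment. No healthy liver is among the samples, so each value below is a level in diseased liver or a difference between diseased livers, and none is an effect of disease.

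Steatohepatitis is a fatty liver with inflammation and, in time, scarring. Hepatocytes store triglyceride in lipid droplets, macrophages derived from blood monocytes join or replace the resident Kupffer cells, and hepatic stellate cells turn into collagen-producing myofibroblasts. Animals of one group often differ in how far each of these processes has gone, and genes that serve the same process or the same cell type can then differ together from liver to liver.

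Libraries were made from polyadenylated RNA of whole liver with a stranded kit, and read as 101-base pairs. The deposited values are FPKM, fragments per kilobase of transcript per 1000000 fragments, which allow levels to be compared between genes. The table lists 14293 genes, all protein-coding, and 10259 of them had a mean of at least 1 FPKM over the 8 livers. The counts behind the values were recovered from the steps between low FPKM values and came to 12 to 19.8 per liver in units of 1000000 fragments, with replicate 7 the deepest. Whole-liver RNA mixes cell types, so fewer cells of a type and less RNA per cell cannot be told apart. The labels do not say that each replicate is a separate animal, and p-values below measure only the spread between these 8 samples.

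Replicates 3 and 7 stood apart from the rest in many of the results. In replicate 3, 17 genes were at least 2 times the next liver, in replicate 7 there were 4 such genes, in replicates 4 and 6 there was 1 each, and in replicates 1, 2, 5 and 8 there were 0. The first principal component held 25.7% of the variance, with replicates 3 and 7 at one end and replicates 8, 6 and 5 at the other. Libraries also differed in base composition: over 10259 genes, the rank correlation of a gene's deviation with its GC content ran from -0.366 in replicate 5 to 0.401 in replicate 3, and was 0.366 in replicate 7 and 0.394 in replicate 4. For many of the slopes, counts of slopes and median correlations below, values without replicate 3, replicate 7 or both are given beside the result. Where none is given, the value is for all 8 livers and may depend on these livers.

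The highest levels belonged to genes for plasma proteins and lipoproteins made by hepatocytes. Alb, which encodes serum albumin, had 22085 ± 1586 FPKM (SD, n = 8), from 20097 to 24506, and alone took 6.7% of the summed FPKM. Apoe followed with 11329 ± 1146 FPKM, Apoa2 with 8069.6 ± 979.9 and Apoa1 with 5052 ± 1004, all 3 of them lipoprotein components. The haem carrier Hpx, the haemoglobin carrier Hp, the thyroid hormone and retinol carrier Ttr and the vitamin D carrier Gc each stood between 3019.9 and 3546 FPKM. Together 10 genes made up 22.4% of the summed FPKM, 30 genes 33.8% and 300 genes 60.3%. At the other end of the scale, 33 genes reached 1000 FPKM, 435 reached 100 and 3484 reached 10.

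**Figure D1:**
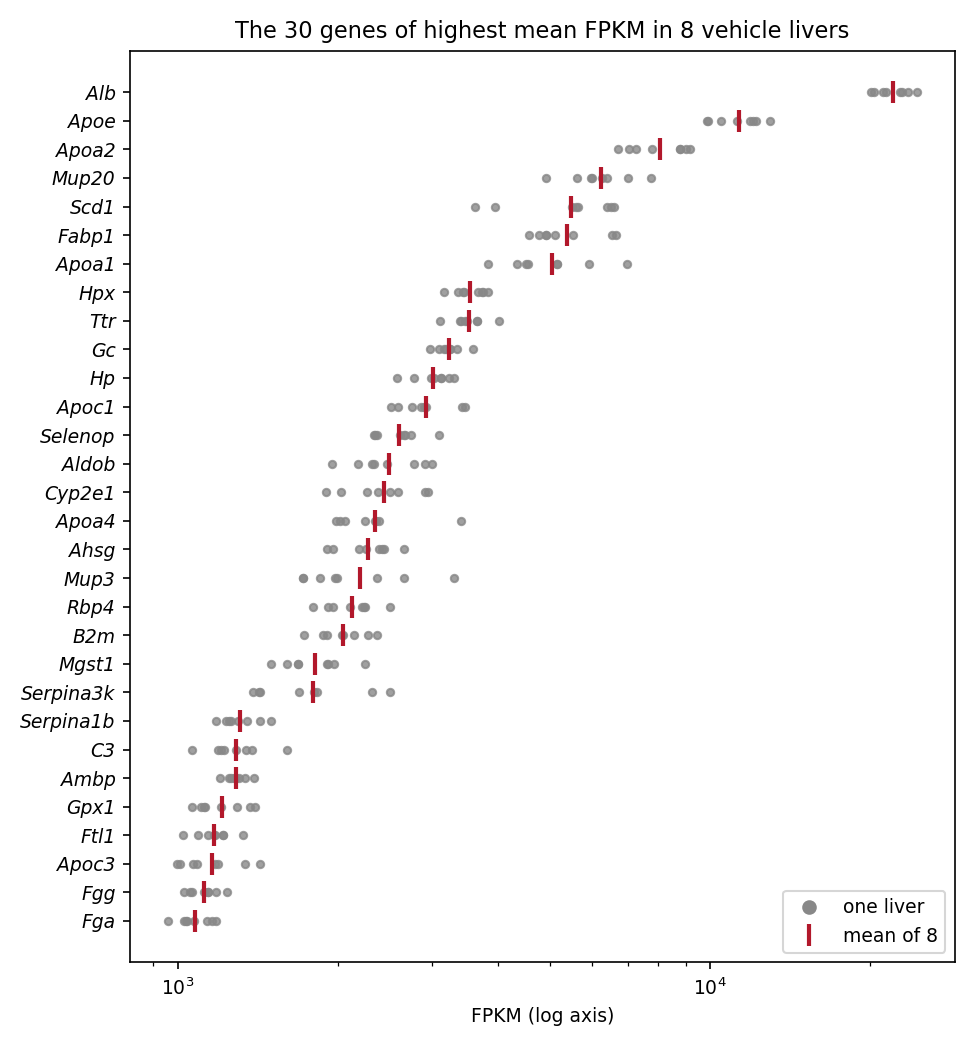
FPKM on a log axis for the 30 genes with the highest mean. Grey points are the 8 livers and the red tick is their mean; Alb spans 20097 to 24506 FPKM and stays above every other gene in each liver.

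Genes of fat handling were close behind the plasma proteins. Scd1, the desaturase that makes oleate and palmitoleate, ranked 5 by mean level with 5476 ± 1137 FPKM. Its lowest value was 3615, its median 5617 and its highest 6592, and replicates 7 and 3 were the lowest. Fabp1, the main fatty acid carrier inside hepatocytes, had 5381 ± 799.7 FPKM. Among lipid droplet proteins, Plin2, which coats droplets, had 254 ± 37.9 FPKM, the droplet enzyme gene Hsd17b13 262 ± 18.3, and Cidec, which promotes droplet growth, 80.5 ± 8.04. The triglyceride synthesis gene Dgat2 stood at 200.2 ± 13.2 FPKM, and the peroxisomal oxidation gene Acaa1b at 978 ± 101. Of 28 genes on the lipogenesis list, which runs from citrate cleavage to desaturation and triglyceride synthesis, all 28 passed a mean of 1 FPKM, and they summed to 8665 ± 1504 FPKM.

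The matrix and macrophage genes named next were far below Scd1 and Fabp1 on the same per-length scale. The highest of them stood near the levels of Plin2 and Dgat2. Spp1, which encodes osteopontin and is made by ductular cells and lipid-associated macrophages, had 238 ± 64.8 FPKM and was the highest of 52 measured matrix genes. Its lowest value was 140 and its highest 321. The fibrillar collagens Col3a1 (26.8 ± 5.78 FPKM), Col1a1 (20.1 ± 5.06) and Col1a2 (11.01 ± 2.40) were well below the basement membrane collagen Col18a1 (144 ± 12.3) and the proteoglycan Dcn (65.7 ± 7.38). Timp1, an inhibitor of matrix proteases, had 6.60 ± 1.90 FPKM and Acta2, the smooth muscle actin of myofibroblasts, 3.93 ± 1.41. On the list of recruited and lipid-associated macrophages the receptor gene Trem2 had 3.56 ± 0.991 FPKM, Gpnmb 8.70 ± 3.33, the lysozyme gene Lyz2 199 ± 56.1 and the chemokine receptor gene Ccr2 2.69 ± 0.509.

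Most markers of lymphocytes and neutrophils were near the floor of the table. Of 22 genes for T and NK cells, 19 were in the table and 2 reached a mean of 1 FPKM, with the cytotoxic granule gene Nkg7 highest at 2.02 ± 0.973. The neutrophil genes S100a9 and S100a8, which encode the calprotectin subunits, had 1.91 ± 0.611 and 1.65 ± 0.556 FPKM. Of 12 B and plasma cell genes, 9 were in the table and 3 reached 1 FPKM. These 9 summed to 4.55 FPKM in the lowest liver and 64.99 in the highest, replicate 3, where Jchain alone had 41.4. The table analysed held 0 of 6 skeletal muscle genes, 2 of 12 pancreatic acinar genes and 2 of 6 adipocyte genes, so these tissues could not be looked for in full.

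Acute phase genes, whose products the liver secretes in inflammation, ran from very high to moderate. Serpina3k had 1797 ± 419.6 FPKM, the complement gene C3 1287 ± 161 and the fibrinogen chains Fgg, Fga and Fgb 1121 ± 70.5, 1076 ± 76.6 and 799 ± 39.6. Serum amyloid A genes, which rise most steeply in an acute response, were at 106 ± 20.1 FPKM for Saa1, 64.6 ± 10.95 for Saa2 and 3.76 ± 0.956 for Saa3. The iron hormone gene Hamp stood at 426 ± 201.4 FPKM, with a log2 SD of 0.85.

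The paraoxonases, esterases named in the series title through PON2, differed in level. Pon1, which encodes the enzyme carried on high-density lipoprotein, had 192 ± 19.3 FPKM, Pon3 17.9 ± 1.70 and Pon2, the intracellular member, 8.45 ± 0.558. Pon2 ran from 7.63 to 9.26 FPKM with a median of 8.63, lowest in replicate 2 and highest in replicate 8. The 41 genes of the autophagy list, which form and load autophagosomes, all exceeded 1 FPKM, led by Gabarapl1 (217 ± 30.5), the cargo receptor gene Sqstm1 (164 ± 23.4) and Gabarap (141 ± 7.26). The lysosomal membrane gene Lamp1 had 363 ± 9.81 FPKM.

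Of sex-linked genes, the Y-linked Eif2s3y and Ddx3y were found in all 8 livers, at 14.9 ± 1.82 and 10.9 ± 1.79 FPKM. Eif2s3y ran from 10.8 in replicate 3 to 17.0 in replicate 8. The male-biased major urinary protein gene Mup20 ranked 4 by mean level with 6238 ± 853 FPKM. Genes of the Mup family are near-identical copies, and how reads were divided among them is not given in the sources used here, so the level of any single Mup gene is uncertain.

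Most genes differed little between livers. The spread of a gene is given as the SD of log2(FPKM + 1) over the 8 livers. Its median over 10259 genes was 0.138 (quartiles 0.104 and 0.186), against a median of 0.06 that counting error alone would give at these depths. In 110 genes (1.07%) the SD was at least 0.5, and in 7 it was at least 1. The highest liver was at least 2 times the lowest in 1108 genes (10.8%). For 3957 genes counting error came to over 50% of the SD.

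**Figure D2:**
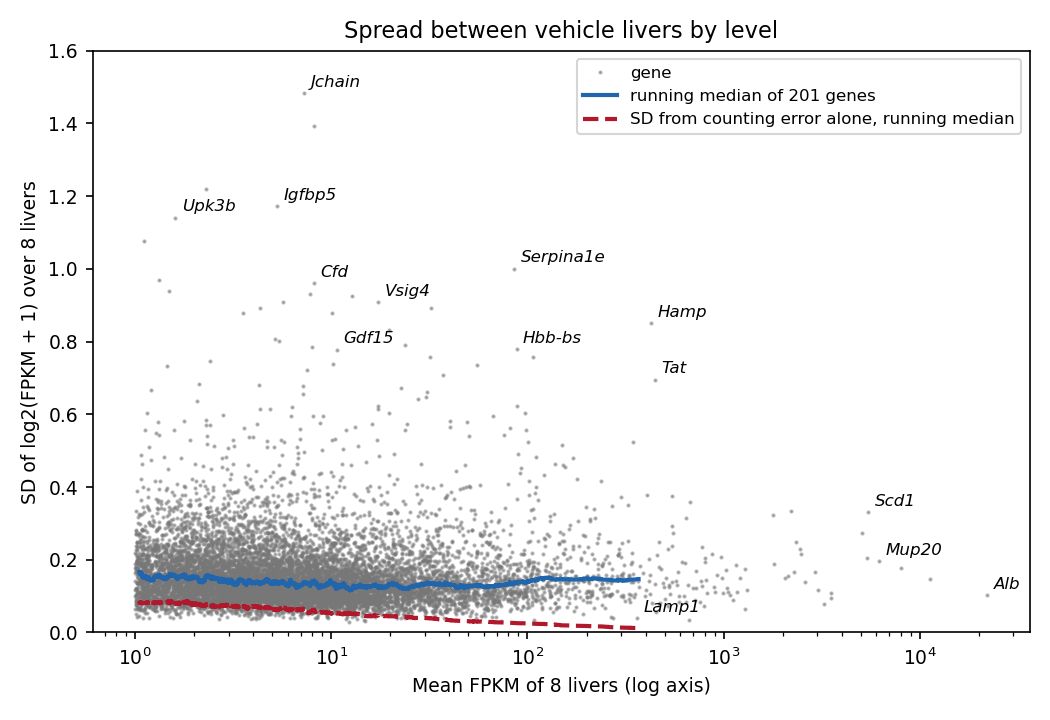
SD of log2(FPKM + 1) over the 8 livers against mean FPKM on a log axis, 1 point per gene with a mean of at least 1 FPKM. The blue line is the running median over neighbouring genes and the red dashed line the running median of the SD expected from counting error; Jchain has the widest spread at 1.48, Hamp reaches 0.85 at a mean of 426 FPKM, and Lamp1 lies at 0.04.

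Among genes with a mean of at least 10 FPKM, the 10 steadiest included Dcaf8, Bag1, Setd3, Ubp1, Clu, Becn1, Clec4g, Lamp1 and Cops7a, with SDs from 0.028 to 0.039. Clu, which encodes the secreted chaperone clusterin, had 668 ± 16.1 FPKM and a log2 SD of 0.035, against 0.008 from counting error. Becn1, a core gene of autophagy initiation, had 11.9 ± 0.338 FPKM and a log2 SD of 0.038, against 0.039 from counting error. Clec4g, a lectin of sinusoidal endothelium, had 13.5 ± 0.382 FPKM, and its SD of 0.038 was below its counting error of 0.062. For Becn1 and Clec4g, as for Dcaf8, Bag1, Setd3, Ubp1 and Cops7a, whose SDs were also below their counting errors, no difference between livers was detectable at this depth.

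The widest spread came from B cell and surface-lining genes in 1 liver. Jchain, the joining chain of secreted antibodies, had 41.4 FPKM in replicate 3. In the other 7 livers it ran from 0.93 to 5.04 FPKM, so that the median was 1.78 and the log2 SD 1.48. Cd79b and Cd22, both part of the B cell receptor complex or its control, were also highest in replicate 3, at 7.08 and 3.65 FPKM, 3.29 and 2.70 times the next liver. Upk3b, a mesothelial marker, had 10.7 FPKM in replicate 3 and at most 0.64 elsewhere. Igfbp5 and Igfbp6, which bind insulin-like growth factors, had 27.9 and 13.8 FPKM there against at most 2.68 and 1.77 in the other livers. The B cell chemokine gene Cxcl13 had 8.05 FPKM in replicate 3, 0.26 or less in the other livers, and was listed at 0 in replicate 1. The haemoglobin genes Hbb-bs (204 FPKM, 38.4 to 119 elsewhere) and Hba-a1 (86.0 FPKM, 15.4 to 37.4 elsewhere) were highest in the same liver. Whether these genes share a source in replicate 3 was not tested.

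Kupffer cell genes were highest in replicate 7. Vsig4, a complement receptor of resident macrophages, had a lowest value of 4.48, a median of 14.6 and a highest of 42.2 FPKM, with replicate 7 highest, replicate 3 second at 25.8 and replicate 4 lowest. Clec4f, a lectin found on Kupffer cells, ran from 16.6 to 70.7 FPKM with a median of 24.5, and Cd5l, a lipid-binding protein of macrophages, from 51.5 to 186 with a median of 76.9. Both were again highest in replicate 7 and second in replicate 3. Timd4 and Marco, markers of long-resident Kupffer cells, had 2.87 and 2.64 FPKM in replicate 7 and 2.36 and 2.86 in replicate 3, against at most 0.52 and 0.66 in the other 6 livers. All 21 Kupffer genes of the list, 15 of them above 1 FPKM, summed to 437 FPKM in the lowest and 947 in the highest liver. The list of recruited and lipid-associated macrophages also had its highest mean in replicate 7, 0.405 above the mean of the livers on the log2 scale. Gpnmb had 16.1 FPKM there against 5.30 to 9.70 elsewhere. Not every member was highest in that liver: Spp1 (321 FPKM) and Plin2 (317 FPKM) were highest in replicate 1, and Apoe in replicate 4.

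Another set of wide genes separated the livers in a different order. Tubb2a, a beta-tubulin, ran from 42.2 to 203 FPKM with a median of 92.8, and replicates 1 and 2 were highest. Igfbp1, an insulin-suppressed secreted protein, ran from 28.3 to 115 with a median of 46.4, and Ppp1r3g, a glycogen-targeting phosphatase subunit, from 1.89 to 10.9 with a median of 2.96. Both were highest in replicates 1 and 2. Gdf15, a stress-induced secreted factor, had 13.2 to 19.0 FPKM in replicates 1 to 4 and 2.62 to 8.23 in replicates 5 to 8, and Tubb2a was likewise higher in each of replicates 1 to 4 than in any of replicates 5 to 8. The order was the other way round for Hamp, with 141 to 243 FPKM in replicates 1, 2 and 3 and 509 to 649 in replicates 4 to 8. Phlda1 (10.95 to 63.4 FPKM), the transcription factor gene Foxq1 (1.17 to 9.98) and Cish (0.93 to 6.57), a feedback inhibitor of cytokine and growth hormone receptors, were each lower in replicates 1 to 4 than in replicates 5 to 8. Tat, a glucocorticoid-induced gene of tyrosine breakdown, ran from 153 FPKM in replicate 7 to 652 in replicate 2, with a median of 507. The labels give neither the time of day nor the feeding state at collection.

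For a few other wide genes the lowest or highest value fell in replicate 4, 5 or 6. Fgf21, a hormone of fasting and stress, was lowest in replicate 5, with 2.46 FPKM against 5.43 to 10.9 elsewhere. The complement protease gene Cfd, best known from fat tissue, had 0.88 FPKM in replicate 6 and 5.74 to 17.9 elsewhere. Like the Kupffer cell genes, it was highest in replicate 7 and second in replicate 3, at 11.4 FPKM. Serpina1e ran from 21.3 FPKM in replicate 6 to 231 in replicate 4, with a median of 66.7. Mup7 (28.2 FPKM) and Mup11 (18.0 FPKM) were likewise highest in replicate 4, with the caution on near-identical copies that holds for Mup genes. The female-biased genes Cyp2b9 (1.31 to 10.02 FPKM) and Cyp2a4 (3.05 to 18.2 FPKM) were lowest in replicate 4 and highest in replicate 8.

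Covariation was measured next. For each of the 40 gene lists, out of 44, with at least 3 members above 1 FPKM, Pearson's r over the 8 livers was computed for every pair of its members on the log2(FPKM + 1) scale, and the median over pairs was set beside that of all pairs of the 10259 genes. With 8 livers single r values scatter widely: over all gene pairs the median was 0.002, the 5th percentile -0.657, the 95th 0.665, and 12.6% of pairs had r of at least 0.5. A list's median r is a description of these 8 livers, whose points share libraries, depth and base composition.

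The class II antigen presentation genes had the highest median r among lists of at least 5 members. Their 12 genes encode the class II chains, the chaperones that load peptide on them, and their regulators. The median r was 0.843, 100% of pairs were positive, and without replicates 3 and 7 it was 0.76. With no filter on low values, which takes in all 20 genes of the list, it was 0.456. Cd74, the invariant chain, had a lowest value of 149, a median of 193 and a highest of 278 FPKM. Replicate 3 was highest, replicates 2 and 7 followed with 251 and 250.5, and replicate 6 was lowest. H2-Eb1 ran from 57.1 to 103 FPKM with a median of 76.5, H2-Ab1 from 43.0 to 80.5 with a median of 55.2, and H2-Aa from 34.9 to 58.0 with a median of 44.8. Replicates 2, 3 and 7 held the 3 highest values of each, and replicate 6 the lowest.

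The upstream sequences of 2 of these chains are shown because class II genes share a promoter module, of which the Y box (ctgattgg) binds the factor NF-Y. They are the 250 bases before the start in RefSeq, build GRCm38.p6, 5′ to 3′ on the gene's strand, with each match to the letters CTGATTGG on either strand in capitals. H2-Aa lies at chr17:34287824-34288073 on the minus strand and H2-Eb1 at chr17:34305617-34305866 on the plus strand.
H2-Aa: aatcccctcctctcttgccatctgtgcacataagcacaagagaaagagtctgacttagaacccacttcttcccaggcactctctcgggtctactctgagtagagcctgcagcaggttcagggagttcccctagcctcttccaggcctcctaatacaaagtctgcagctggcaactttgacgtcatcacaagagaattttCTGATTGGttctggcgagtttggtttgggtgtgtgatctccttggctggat
H2-Eb1: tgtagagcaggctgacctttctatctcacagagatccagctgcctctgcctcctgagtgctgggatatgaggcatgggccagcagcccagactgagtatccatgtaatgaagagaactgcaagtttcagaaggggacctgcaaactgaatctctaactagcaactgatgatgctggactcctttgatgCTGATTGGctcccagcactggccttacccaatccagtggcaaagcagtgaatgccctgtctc
Each window held 1 match, beginning 51 bases before the start in H2-Aa and 62 in H2-Eb1. Both RefSeq windows of H2-DMa, whose product helps load peptide on class II chains, held 0 matches. Their starts lie 3291 and 5977 bases downstream of the GENCODE M21 gene start of H2-DMa. The sequence before that gene start was not searched, so a Y box there would have been missed. For H2-Aa and H2-Eb1 the RefSeq and GENCODE M21 starts coincide. Over 32851 promoter windows of the same length, 3.83% held the 8 letters.

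Each gene was then regressed on each of 16 anchor genes, 1 for each of 16 processes, over the 8 livers with limma, with Benjamini-Hochberg adjustment over all genes within an anchor. On Cd74, 0 of 10258 genes passed an adjusted p of 0.05 (0% called). The nearest were class II genes and leukocyte genes: H2-Eb1 (slope 0.93 ± 0.12 SE, r = 0.980), H2-DMa (0.95 ± 0.13), the integrin gene Itgb2 (1.15 ± 0.16) and H2-Ab1 (0.93 ± 0.13), all with an adjusted p of 0.0589 by limma. At an unadjusted p under 0.05, 10 of 11 class II genes had a positive slope, against 6.39% of all genes. The eleventh also had a positive r. Without replicates 3 and 7 the count was 8 of 11, against 2.58% of all genes, and the slope of H2-Eb1 was 0.95 ± 0.20 (r = 0.978, adjusted p = 0.823 by limma). A slope near 1 means that the gene and Cd74 differed between livers by about the same factor.

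The metallothioneins, small cysteine-rich proteins that bind zinc and copper, gave the closest single pair. Mt1 had a lowest value of 20.7, a median of 29.0 and a highest of 45.5 FPKM, and Mt2 26.1, 45.3 and 64.1. Replicate 7 was highest and replicate 6 lowest for both, with replicate 5 next to the lowest. The slope of Mt2 on Mt1 was 1.07 ± 0.12 (r = 0.962, adjusted p = 0.0253 by limma), and Mt2 was the only gene called on Mt1 (0.00975% of 10258). The same pair had an adjusted p of 0.311 once trends with GC content and exon length were taken out of each library, with r = 0.917, and 0.212 when adjusted over all 16 anchors together. Leaving out single livers gave adjusted p-values from 0.00513, without replicate 1, to 0.371, without replicate 6, and it was also above 0.05 without replicates 2, 3, 5, 7 or 8. Ranked by moderated t, the slope over its SE, the genes next to Mt2 encode proteins of the cytosolic ribosome, Rpl37 (slope 0.70 ± 0.10) and Rpl37a (0.79 ± 0.12), with adjusted p-values of 0.101 and 0.124.

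Both genes lie side by side on chromosome 8, and their upstream sequences are shown because metallothionein genes are known for metal response elements, the sites of the zinc sensor MTF1. The core was searched as TGCACNC or TGCGCNC on both strands, and matches are in capitals. Mt2 lies at chr8:94172368-94172617 and Mt1 at chr8:94178839-94179088, both on the plus strand, as the 250 bases before the RefSeq start in GRCm38.p6.
Mt1: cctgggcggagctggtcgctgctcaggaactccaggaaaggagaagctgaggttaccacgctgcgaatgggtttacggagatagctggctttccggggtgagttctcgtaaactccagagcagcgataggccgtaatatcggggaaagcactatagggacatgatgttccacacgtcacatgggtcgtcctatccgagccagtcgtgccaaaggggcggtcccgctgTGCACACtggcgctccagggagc
Mt2: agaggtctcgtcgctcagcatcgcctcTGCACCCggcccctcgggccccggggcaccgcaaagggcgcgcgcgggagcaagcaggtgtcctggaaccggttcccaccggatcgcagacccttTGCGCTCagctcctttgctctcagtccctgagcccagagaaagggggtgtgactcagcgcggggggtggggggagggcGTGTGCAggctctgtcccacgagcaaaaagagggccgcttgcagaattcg
The window of Mt2 held 3 matches and that of Mt1 held 1. At least 1 match was found in 21.4% of the 32851 promoter windows and at least 2 in 5.17%. The RefSeq start used here lies 7 bases downstream of the GENCODE M21 gene start for Mt1 and 46 bases upstream of it for Mt2, so which start these livers use is not settled by the windows. Sequence around other start sites was not used here.

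Ribosomal and respiratory chain genes covaried, and this depended on the scaling for the second. The 59 cytosolic ribosome genes above 1 FPKM had a median r of 0.780, and 0.735 when FPKM was rescaled to TPM, transcripts per 1000000, which gives each library the same total. Their mean was highest in replicate 7, 0.263 above the mean of the livers on the log2 scale, and lowest in replicate 6 (-0.178). The 47 genes of oxidative phosphorylation had a median r of 0.534, but 0.175 as TPM and 0.161 after quantile normalization. They were highest in replicates 8 and 4, the livers with the largest summed FPKM (352578 and 350714). The hepatocyte list behaved likewise, with a median r of 0.396 that was 0.131 as TPM.

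Genes of fat and sterol synthesis had their lowest list means in replicate 7. Fasn, the fatty acid synthase gene, had a lowest value of 103, a median of 163 and a highest of 240 FPKM. Replicates 1, 4 and 2 were highest, at 223.7 or more, and replicates 7, 5 and 6 lowest. Acly, which supplies cytosolic acetyl-CoA, ran from 58.1 to 135 FPKM with a median of 82.7, and Gpam, which begins triglyceride synthesis, from 60.7 to 132 with a median of 84.4. Replicates 1, 2, 4 and 8 held the 4 highest values of both. On Fasn, 0 of 10258 genes were called (0%), and the slopes nearest to a call were those of Acly (0.97 ± 0.12, adjusted p = 0.0679 by limma) and Gpam (0.72 ± 0.10, adjusted p = 0.112). At an unadjusted p under 0.05, 18 of 27 lipogenesis genes had a positive slope and 0 a negative one, against 3.1% of all genes with a positive slope. Without replicates 3 and 7 it was 11 of 27, against 3.82%, and the slope of Acly was 0.98 ± 0.13 (adjusted p = 0.162 by limma). Pnpla3, a lipid droplet enzyme gene, had r = 0.890, and Acaca, the acetyl-CoA carboxylase, r = 0.965. The sterol gene Insig1 (r = 0.876) was also among the 10 genes of highest moderated t on Fasn, as was the wide gene Ppp1r3g, while Foxq1, Phlda1 and Cish were among the lowest (r = -0.871, -0.825 and -0.796).

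The lipogenesis list had a median pair r of 0.517 and the cholesterol synthesis list 0.490. Without replicate 7 these were 0.386 and 0.378, and without replicates 3 and 7 together 0.417 and 0.374. Genes of lipid droplets (0.136) and of lipid uptake and binding (0.039) had lower medians, with median SDs of 0.142 and 0.205 against 0.138 over all genes. The PPARA and fatty acid oxidation list had 0.335. Cyp4a14, its anchor and a steep PPARA target, ran from 79.9 to 235 FPKM with a median of 151, highest in replicate 3 and lowest in replicate 5, and its neighbour Cyp4a10 had r = 0.875 with it (slope 0.77 ± 0.15). On Cyp4a14, 0 genes were called by limma (0%) and 280 had an unadjusted p under 0.05. These made up 1.4% of all genes for positive slopes and 1.33% for negative ones.

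**Figure D3:**
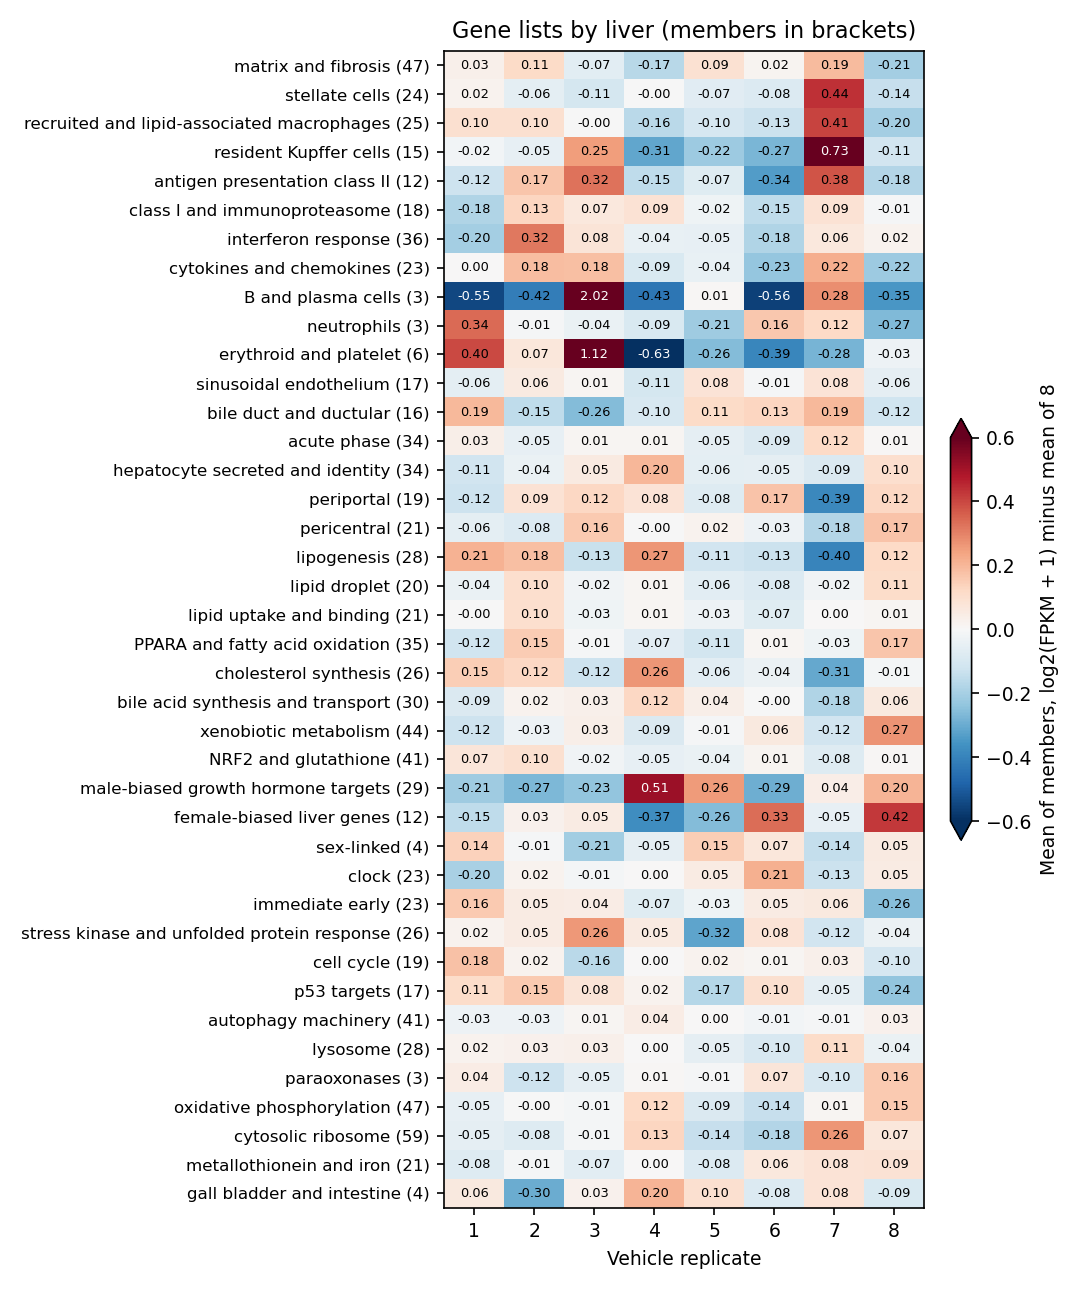
Mean over a list's members of log2(FPKM + 1) minus its mean over the 8 livers, for each list with at least 3 members above 1 FPKM; red is above and blue below the mean, and colours stop at 0.6 either way. Replicate 7 is highest for Kupffer genes (0.73) and lowest for lipogenesis (-0.40), and replicate 3 is highest for B and plasma cell genes (2.02).

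The major fibrillar collagen genes Col1a1, Col1a2 and Col3a1 had high correlations across livers, but none passed the test. Col1a1 had a lowest value of 14.03, a median of 18.6 and a highest of 29.5 FPKM, and replicates 2 and 7 were the highest. The same 2 livers were highest for Col1a2 (8.72 to 14.99 FPKM, median 10.1) and Col3a1 (21.0 to 37.8, median 26.8). The slopes on Col1a1 were 0.80 ± 0.12 for Col1a2 (r = 0.970, adjusted p = 0.333 by limma) and 0.81 ± 0.15 for Col3a1 (r = 0.922, adjusted p = 0.804), and 0 of 10258 genes were called (0%). Without replicates 3 and 7 the slopes were 0.74 ± 0.15 and 0.82 ± 0.18, both with an adjusted p of 0.761 by limma. Leaving out these livers keeps replicate 2, the highest for each of these collagens, so dependence on replicate 2 is not shown by it. Other fibrillar collagens ranged from Col5a1 (r = 0.915) and Col5a2 (r = 0.644) to Col5a3 (r = -0.071). At an unadjusted p under 0.05, 16 of 46 matrix genes had a positive slope, against 2.47% of all genes, and 14 of 46 without replicates 3 and 7, against 3.73%. Sparc, Col5a1 and Col6a1 were among the 10 genes of highest moderated t. The whole matrix list had a median pair r of 0.369. Of its members of high level, Spp1 had r = 0.396 with Col1a1, Fn1 r = 0.045 and Col18a1 r = 0.055.

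The median correlations of stellate and Kupffer cell genes were lower without replicate 7. The stellate list had a median pair r of 0.520 over 8 livers and 0.071 without replicate 7. The Kupffer list went from 0.650 to 0.312, and to 0.196 without replicates 3 and 7. Recruited macrophage genes had 0.389, and 0.254 without replicate 7. On Trem2, 0 genes were called by limma (0%), and the nearest were the homeobox gene Rhox5 (slope 2.93 ± 0.38) and the interferon-induced membrane gene Ifitm1 (1.30 ± 0.17), both with an adjusted p of 0.0541. Rhox5 had 6.95 FPKM in replicate 7 and at most 1.71 elsewhere. Gpnmb, known from lipid-laden macrophages, came next (1.37 ± 0.20, adjusted p = 0.0731). Without replicate 7 these slopes were 1.99 ± 0.46 for Rhox5, 1.09 ± 0.26 for Ifitm1 and 1.07 ± 0.28 for Gpnmb, with adjusted p-values of 0.366, 0.389 and 0.404 by limma. Without replicate 3 those of Rhox5 and Ifitm1 passed, both with an adjusted p of 0.0381. In total 13 of 24 macrophage genes had a positive slope at an unadjusted p under 0.05, against 5.39% of all genes, and 6 of 24 without replicate 7, against 4.46%. Over 8 livers the median r with Trem2 was 0.65 for this list, 0.68 for Kupffer genes and 0.63 for stellate genes. Covariation with Trem2 was thus not particular to the recruited macrophage list. The 3 B and plasma cell genes above 1 FPKM had a median r of 0.923, 0.451 without replicate 3 and -0.105 without replicates 3 and 7.

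Interferon-stimulated genes were highest in replicate 2. The list's 36 genes above 1 FPKM had a median pair r of 0.489, and 0.284 without replicate 2. Isg15, a ubiquitin-like protein induced by interferon, had a lowest value of 10.9, a median of 13.0 and a highest of 16.9 FPKM, with replicates 7, 2 and 3 at 16.05 or more and replicate 1 lowest. Oas1a, an RNA-sensing enzyme gene, had r = 0.968 with Isg15 (slope 0.82 ± 0.16, adjusted p = 0.263 by limma). On Isg15, 0 genes were called (0%), and at an unadjusted p under 0.05, 15 of 35 interferon genes had a positive slope, against 5.96% of all genes. It was 21 of 35 without replicates 3 and 7, against 2.07%. Ranked by moderated t, the nearest genes were Fermt3, Asap3, Itgal and Gngt2, none of them on the interferon list. With replicates 3 and 7 included, the median r with Isg15 was 0.61 for the interferon list. It was 0.78 for class II genes, 0.69 for Kupffer genes and 0.63 for class I and immunoproteasome genes, and lower than 0.61 for the remaining lists. Covariation with Isg15 was thus not particular to the interferon list.

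Acute phase genes had a low median correlation. Their 34 members had a median pair r of 0.083, close to that of all gene pairs. Saa1 had a lowest value of 77.8, a median of 106 and a highest of 137 FPKM, with replicate 7 highest and replicate 6 lowest. Saa2 had r = 0.910 with it and Lcn2, an iron-trapping protein of the acute phase, r = 0.864. Other lists with a low median r were autophagy (0.030), metallothionein and iron genes (0.1), NRF2 and glutathione genes (0.1), the clock list (0.153) and lysosomal genes (0.166). On Saa1, 0 of 10258 genes were called by limma (0%), and 6 of 33 acute phase genes had a positive slope at an unadjusted p under 0.05, against 4.07% of all genes. The metallothionein genes Mt1 and Mt2, which also stand on the acute phase list, were among these 6. Leaving out replicates 3 and 7 gave 4 of 33, against 1.31%.

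The low median of the clock list hid pairs that ran in opposite directions. Dbp, a transcription factor that the clock drives to high amplitude, had a lowest value of 28.0, a median of 54.1 and a highest of 62.4 FPKM. Replicates 1, 2 and 3 were the lowest, in that order. On Dbp, limma called 3 of 10258 genes (0.0292%), 2 of them with a positive slope (0.0195%) and all with an adjusted p of 0.0483: Ngef, a guanine nucleotide exchange factor gene (slope 0.86 ± 0.11, r = 0.954), Pop7, which encodes a subunit of RNase P (0.82 ± 0.11, r = 0.957), and Trp53inp1, a p53-induced regulator of cell stress and autophagy (-0.94 ± 0.13, r = -0.944). Ngef ran from 5.48 FPKM in replicate 1 to 12.1 in replicate 8 with a median of 10.5. Trp53inp1 ran from 7.62 in replicate 7 to 17.9 in replicate 1 with a median of 10.9. Pop7 ran from 2.83 in replicate 1 to 6.66 in replicate 7 with a median of 5.77. Without replicate 1 the adjusted p-values were 0.606 to 0.790, and when adjusted over all anchors together 0.212. They were also above 0.05 without replicate 2, 3, 5, 6, 7 or 8 (0.0591 to 0.209), and without replicate 4 that of Trp53inp1 was (0.0524). All 3 were 0.0459 without replicates 3 and 7 together.

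Of the 22 other clock genes, 9 had a positive slope on Dbp at an unadjusted p under 0.05 (4.86% of all genes) and 4 a negative one (4.03% of all genes). Without replicates 3 and 7 these were 9 and 2 (5.12% and 4.36%). Tef, a relative of Dbp (r = 0.909), the repressor gene Cry2 (r = 0.960) and Por (r = 0.857) ran with it. Tsc22d3, a glucocorticoid-induced gene (r = -0.769), Clock (r = -0.745) and Bhlhe40 (r = -0.778) ran against it. Igfbp1, described above as high in replicates 1 and 2, had a slope of -1.66 ± 0.24 on Dbp (r = -0.909, adjusted p = 0.062 by limma).

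**Figure D4:**
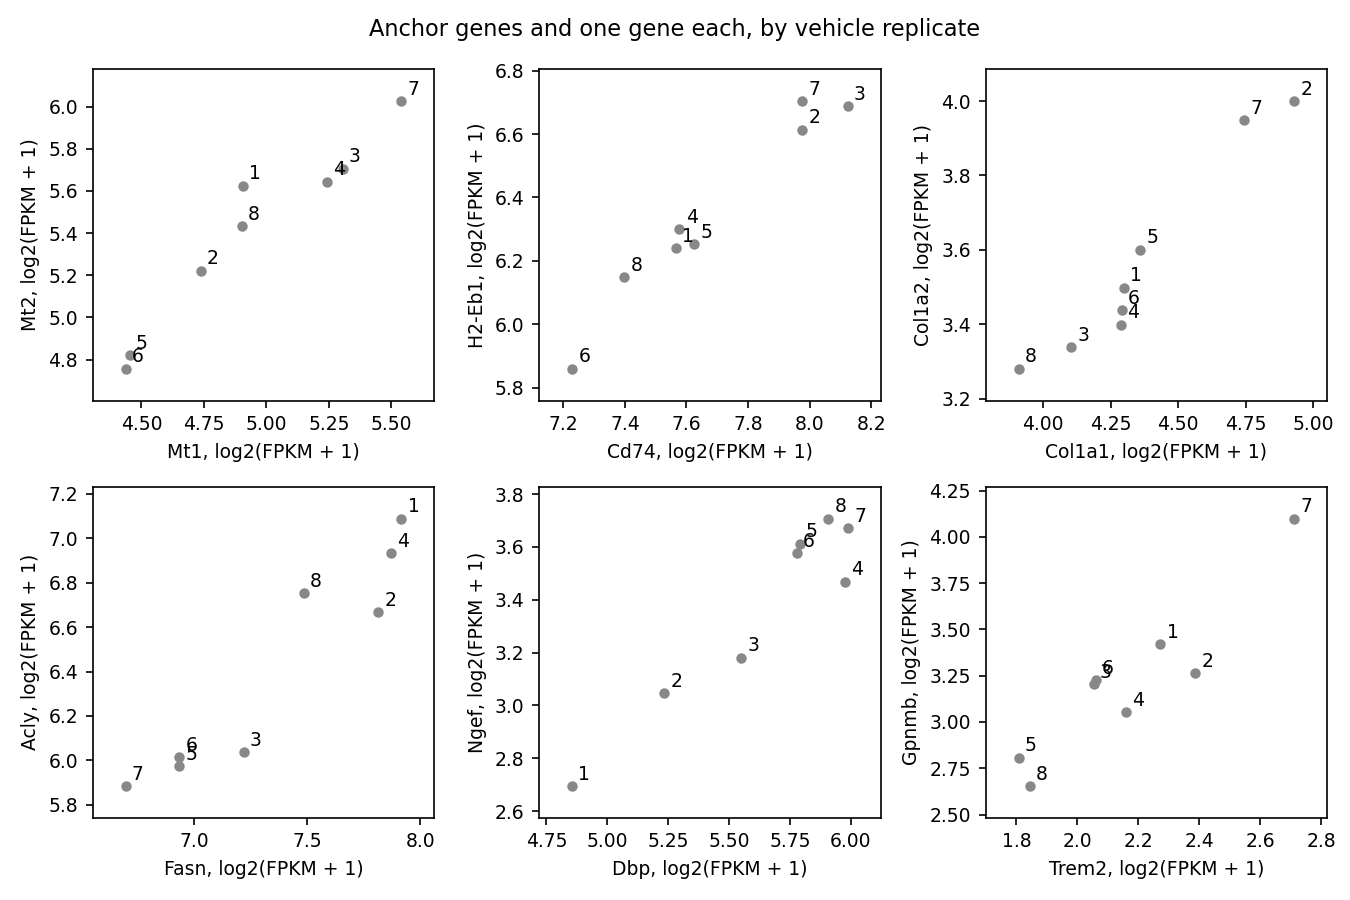
log2(FPKM + 1) of 6 anchor genes on the horizontal axes against 1 gene each on the vertical axes; each point is a liver and its number the replicate. In all 6 panels the livers fall along a rising line, with r from 0.931 (Trem2 and Gpnmb) to 0.980 (Cd74 and H2-Eb1).

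The remaining anchors gave 0 calls by limma (0%). On Sqle, Cidec, Cyp2b10, Mup20, Top2a, Krt19 and Fos the smallest adjusted p-values were 1, 1, 0.0914, 0.684, 0.154, 0.413 and 0.0614, and 266, 229, 607, 636, 774, 905 and 554 genes had an unadjusted p under 0.05. With positive and negative slopes apart, the shares of all genes ran from 1.3% and 0.936% on Cidec to 4.85% and 3.97% on Krt19. On Fos they were 2.52% and 2.88%. An average share of 0.05, both signs together, is reached without any relation. The smallest adjusted p-value on Fos belonged to Mup17, with a slope of -1.73 on the immediate early gene, subject to the caution on Mup genes. On Cyp2b10, a xenobiotic-induced cytochrome near 0.579 FPKM, it belonged to the acyl-CoA thioesterase gene Acot3 (1.72 ± 0.22). Of 29 male-biased growth hormone targets the median pair r was 0.469, and their mean was highest in replicate 4 (0.514) and lowest in replicate 6 (-0.293). The 12 female-biased genes were highest in replicate 8 (0.425) and lowest in replicate 4 (-0.374).

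**Figure D5:**
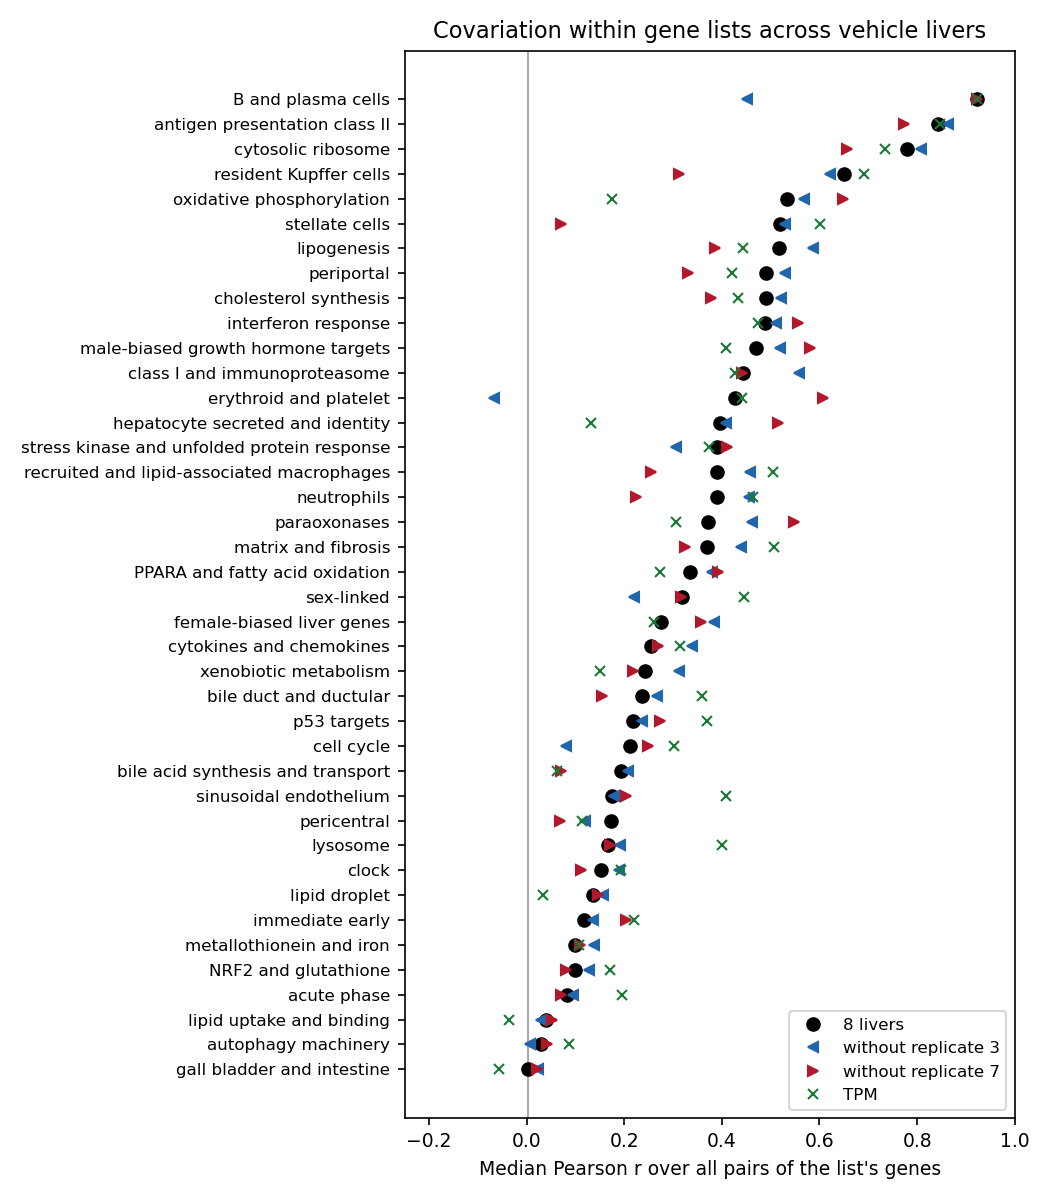
Median Pearson r over all pairs of a list's genes, for all 8 livers (black), without replicate 3 (blue), without replicate 7 (red) and as TPM (green crosses); the grey line is the median over all gene pairs, 0.002. Class II genes stay at 0.774 or more in these 4 settings, while stellate genes go from 0.520 to 0.071 without replicate 7.

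Processes were compared with each other through their anchors. Among the 120 pairs of 16 anchors, 0 passed an adjusted p of 0.05 in exact permutation tests, two-sided over 40320 pairings, with 5 pairs under an unadjusted 0.05 for Pearson's r and 3 for Spearman's rho. The closest pair was Saa1 with Mt1, at r = 0.866 (exact permutation p = 0.00702, adjusted 0.773) and rho = 0.952 (exact permutation p = 0.00114, adjusted 0.137). Without the 2 livers farthest from the median of Saa1, replicates 6 and 7, r was 0.693. Mt1 also stands on the acute phase list, so this pair lies within that list and does not compare separate lists. Cd74 and Isg15 had r = 0.795 (exact permutation p = 0.024, adjusted 0.773) with rho = 0.643 (p = 0.0962, adjusted 0.855), and r = 0.638 without replicates 2 and 3. Col1a1 and Trem2, anchors of matrix and lipid-associated macrophages, had r = 0.752 (exact permutation p = 0.0304, adjusted 0.773) with rho = 0.595 (p = 0.132, adjusted 0.855). Without replicates 2 and 7, the 2 livers farthest from the median of Col1a1, that r was 0.359. Leaving out the extreme livers narrows the range of Col1a1, so the lower r does not show what the relation rests on.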

How the data were processed

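Total RNA of 8 vehicle livers was analysed from 1 deposited table of the whole series. Its values are FPKM that the authors computed and deposited. The submitters' processing notes list HISAT2, StringTie and DESeq2 as tools. Their build, annotation and filters are not given in the sources used. All 14293 gene IDs and symbols matched GENCODE M21, from which lengths and positions were taken, and 3 symbols stand on 2 rows. Depth per liver was found as the fragment number at which low FPKM values of genes with up to 1500 exonic bases are whole fragments; 100% were within 0.2 of whole, as the step was chosen to give.

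Values were analysed as log2(FPKM + 1), a scale that understates differences of low genes, over genes with a mean of at least 1 FPKM. Slopes on 16 anchor genes were fitted with limma 3.58.1 in R 4.3.3 (trended empirical Bayes, Benjamini-Hochberg adjustment within an anchor, threshold 0.05). The fit was tested on simulated data. Anchor pairs were tested by exact permutation. Named genes are the 30 highest by mean, the 25 widest and 10 narrowest by SD, the anchors, the 6 highest and 4 lowest moderated t values on each anchor, the 4 highest and 2 widest members of each list, and genes called. Other genes were chosen after their values were seen. Some genes that these rules name are not reported here. The members, lists, anchors and rules were chosen with earlier results of these data known. Alternatives were other pseudocounts, TPM, quantile normalization, other filters and each liver left out; subtraction of each library's dependence on GC and exon length, by splines with 5 degrees of freedom, and leaving out replicates 3 and 7 together were added after seeing the data.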

Additional observations from a re-analysis of the deposited data

Results flagged for a closer look

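For 19 of the 141 genes named in the text, 1 liver lay so far from the rest that its gap to the next liver, as a share of the whole range, exceeded Dixon's limit for 8 values. Chance alone marks about 1 in 20 genes when values are normally distributed. The gaps were taken on FPKM and not on the log2 scale, so that rate need not hold here. Many of the genes were also named for a wide spread.

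Replicate 3 was the far liver for 9 of them. It was highest for the B cell genes Jchain (41.4 FPKM, next 5.04), Cd79b (7.08, next 2.15) and Cd22 (3.65, next 1.35). The B cell chemokine gene Cxcl13 (8.05, next 0.26) was also highest in this liver. So were the mesothelial gene Upk3b (10.7, next 0.64), Igfbp5 (27.9, next 2.68), Igfbp6 (13.8, next 1.77) and the haemoglobin gene Hba-a1 (86.0, next 37.4). The Y-linked gene Eif2s3y was lowest in the same liver (10.8 FPKM, next 14.7).

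Replicate 7 was highest for the Kupffer cell genes Clec4f (70.7 FPKM, next 41.6) and Cd5l (186, next 111), and for the macrophage genes Lyz2 (327, next 227) and Gpnmb (16.1, next 9.70). It was also highest for Ifitm1 (10.04, next 6.08) and Rhox5 (6.95, next 1.71), and lowest for Ass1 (335, next 511) and Oat (141, next 319.5). Mup7 was highest in replicate 4 (28.2 FPKM, next 12.7), and Gabarap, a ubiquitin-like protein of autophagosomes, in replicate 8 (158, next 141). What these livers had in common was not tested.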

How the results depend on the processing

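No paired analysis was possible because only the vehicle group was analysed, so its replicate numbers have no second group to pair with. The 30 highest genes held 33.8% of the summed FPKM and, as TPM, 33.8%. Calls on the 16 anchors, 4 in total, became 2 and 1 with pseudocounts of 0.1 and 0.5, 10 as TPM, 15 under a stricter filter (mean of 5 FPKM), 1 with no filter, 9 with a robust spread estimate and 0 when adjusted over all anchors together. They became 17 after subtraction of GC and length trends and 15 without replicates 3 and 7. Leaving out single livers gave 0 (without replicate 6) to 21 (without replicate 4), and 2 without replicate 5 or 7. Counts of anchor pairs stayed at 0 in all 12 alternatives run. The count of genes with an SD of at least 0.5, which was 110, became 251 with a pseudocount of 0.1 and 70 under the stricter filter; without single livers it was 92 to 114. Lists of at least 5 members with a median pair r of at least 0.5 numbered 6, 10 under the stricter filter, and 7 to 11 without single livers, with 11 without replicate 3. A list's median r changed sign for B and plasma cells (-0.105 without replicates 3 and 7), erythroid and platelet genes (-0.066 without replicate 3, up to 0.607 without replicate 7), sex-linked genes (-0.007 with GC and length trends removed, -0.154 without replicates 3 and 7), cell cycle genes (-0.212 under the stricter filter) and iron genes (-0.02 without replicate 5, up to 0.138 without replicate 3). The causes were not tested. The 4 called genes had r from 0.954 to 0.962 or of -0.944; H2-Eb1 on Cd74 (0.980) was not called, so r alone gives no detection limit at 8 livers.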

Other observations

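Urea cycle and periportal genes were lowest in replicate 7, the liver with the highest Kupffer cell levels. Ass1, the urea cycle enzyme argininosuccinate synthase, had 335 FPKM there and 511 to 631 in the other livers. Arg1, which releases urea, had 345 FPKM in replicate 7 and 397 to 558 elsewhere, and Cps1, the entry enzyme of the cycle, 335 and 411 to 564. The pericentral ornithine aminotransferase gene Oat had 141 FPKM in replicate 7 and 319.5 to 454 elsewhere. The 19 periportal genes had a median pair r of 0.491, and 0.330 without replicate 7. Their list mean in replicate 7 was -0.386 on the log2 scale. The pericentral (-0.177), bile acid (-0.181), lipogenesis (-0.398) and cholesterol synthesis (-0.306) lists were also lowest there. Low levels in replicate 7 were thus not particular to periportal genes. The list of hepatocyte secreted and identity genes was lowest in replicate 1 (-0.114, against -0.087 in replicate 7).

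Genes of the unfolded protein response, which raises chaperones when secretory folding is overloaded, were lowest as a list in replicate 5 (-0.315 on the log2 scale) and highest in replicate 3 (0.259). The folding gene Creld2 ran from 18.4 FPKM in replicate 5 to 43.0 in replicate 3 with a median of 24.4, and Manf from 20.4 to 36.3 with a median of 29.3, in the same 2 livers. Ductular genes did not share 1 order: the adhesion gene Epcam was lowest in replicate 3 (2.94 FPKM, against 4.86 to 7.95 elsewhere), whereas Krt19 was highest there (7.22 FPKM, against 2.30 to 5.40). Cyp7a1, the rate-limiting enzyme of bile acid synthesis, ran from 9.03 FPKM in replicate 1 to 30.4 in replicate 6 with a median of 14.1. Proliferation genes were low in each liver, with Mki67 at 0.728 ± 0.168 FPKM and Top2a at 0.719 ± 0.177 (SD, n = 8).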
